A study of Mirounga angustirostris with 8 samples.

Results

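The proteasome is the barrel-shaped protease that degrades ubiquitin-tagged proteins, and the genes of its subunits were followed here in the longissimus dorsi muscle of northern elephant seals (NES) through the molting fast. The members are the rows of the count table whose symbol begins with PSM, a letter from A to G and a number, with a summed raw count of at least 80 over the libraries. The pattern found 49 symbols among 24338 named genes, and 47 reached that count. PSMA8, a subunit of the testis, and PSMB11, a subunit of the thymus, had 0 reads in all 8 libraries. All 47 members passed the filter on low counts and are among the 14312 genes tested. One of them, PSMC3IP, codes for a partner protein of the meiotic recombinases and no part of the proteasome, so it is described apart.

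Biopsies came from adult female NES at a late and an early stage of the annual molt, when the animals fast on land with reduced activity. The 4 post-molt libraries (4448B, 5572B, 9678B and X410B, labelled late molt) were from the later biopsies, which over the seals of the study followed the first by a mean of 34 days, and the 4 pre-molt libraries (5572A, 5842A, 6762A and C497A, labelled early molt) from seals biopsied no more than 5 days after hauling out. No agent or genotype distinguished the groups, and each library is 1 biopsy of 1 animal; among these libraries 1 seal gave both 5572B and 5572A, and the others are from different animals. The study kept the 4 samples of each stage with the most unique reads, because RNA of low quality gave poor sequencing in some samples. The reads were placed on the genome of another seal, the Hawaiian monk seal. Libraries held 30774895 to 61229829 counts post-molt and 37905311 to 56150332 counts pre-molt. Levels are given as CPM, counts scaled to library size with TMM factors, in the library order just listed. Each fold change is a log2 value of post-molt over pre-molt, given ± its standard error (SE). P-values set each group difference against the spread between libraries, estimated with information shared across genes. The unpaired fits treated 5572B and 5572A, which are from 1 seal, as independent. CPM values are relative levels of a gene between libraries, and genes are not ranked against each other by CPM because it does not account for transcript length. Of 10 skeletal muscle markers listed, 8 were counted under their symbols, and their summed level was 172529 to 246728 CPM post-molt and 182379 to 297122 CPM pre-molt. Of these 8 markers 7 had a negative fold change (median -0.62), and MB had a positive one (0.67 ± 0.23, edgeR adjusted p = 0.248). The sum hides uneven single markers. TTN ran from 1152 to 28797 CPM and TNNT3 from 40.1 to 4089 CPM over the 8 libraries, both lowest in 5572A and highest in 5842A. MYH7 and MYH2 were not analysed here.

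The 20S core is a stack of rings of alpha and beta subunits, and 3 of the beta subunits (PSMB5, PSMB6 and PSMB7) carry the catalytic sites. Under interferon, and in immune cells, new cores carry PSMB8, PSMB9 and PSMB10 in their place. The 19S particle caps the core, with a base whose ATPases (PSMC genes) unfold substrates and a lid that removes ubiquitin, while PSME genes code for other caps and PSMG genes for chaperones of core assembly. In fasting rodents the ubiquitin and proteasome system is known for breaking down myofibrillar protein of muscle, and in mammalian cells the transcription factor NFE2L1 raises the transcription of proteasome genes when proteasome activity falls short.

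No proteasome gene passed the main test. edgeR's quasi-likelihood test gave 0 of 47 members higher and 0 lower at an adjusted p under 0.05, where 0.217% of all genes tested were higher and 0.133% lower, and the smallest adjusted p of a member was 0.217. Fold changes were small, from -0.72 for PSMB10 to 0.56 for PSMD3, with a median of -0.07 over the members and -0.04 over all genes tested. In 25 of the 47 members the fold change was smaller than its SE. At an unadjusted p under 0.05, 3 members were higher (PSMC2, PSMD1 and PSMD3) and 2 were lower (PSMB10 and PSME1), which is 6.38% and 4.26% of members, against 5.2% and 6.22% of all genes tested. DESeq2, the tool of the study, called PSMC2 and PSMD3 higher and 0 members lower, of 45 members with an adjusted p, against 3.35% of its genes higher and 3.16% lower. The 4 post-molt libraries lay above the 4 pre-molt libraries in 3 members and below them in 1, against 4.05% and 5.11% of all genes, that is in 6.38% and 2.13% of the members.

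**Figure D1:**
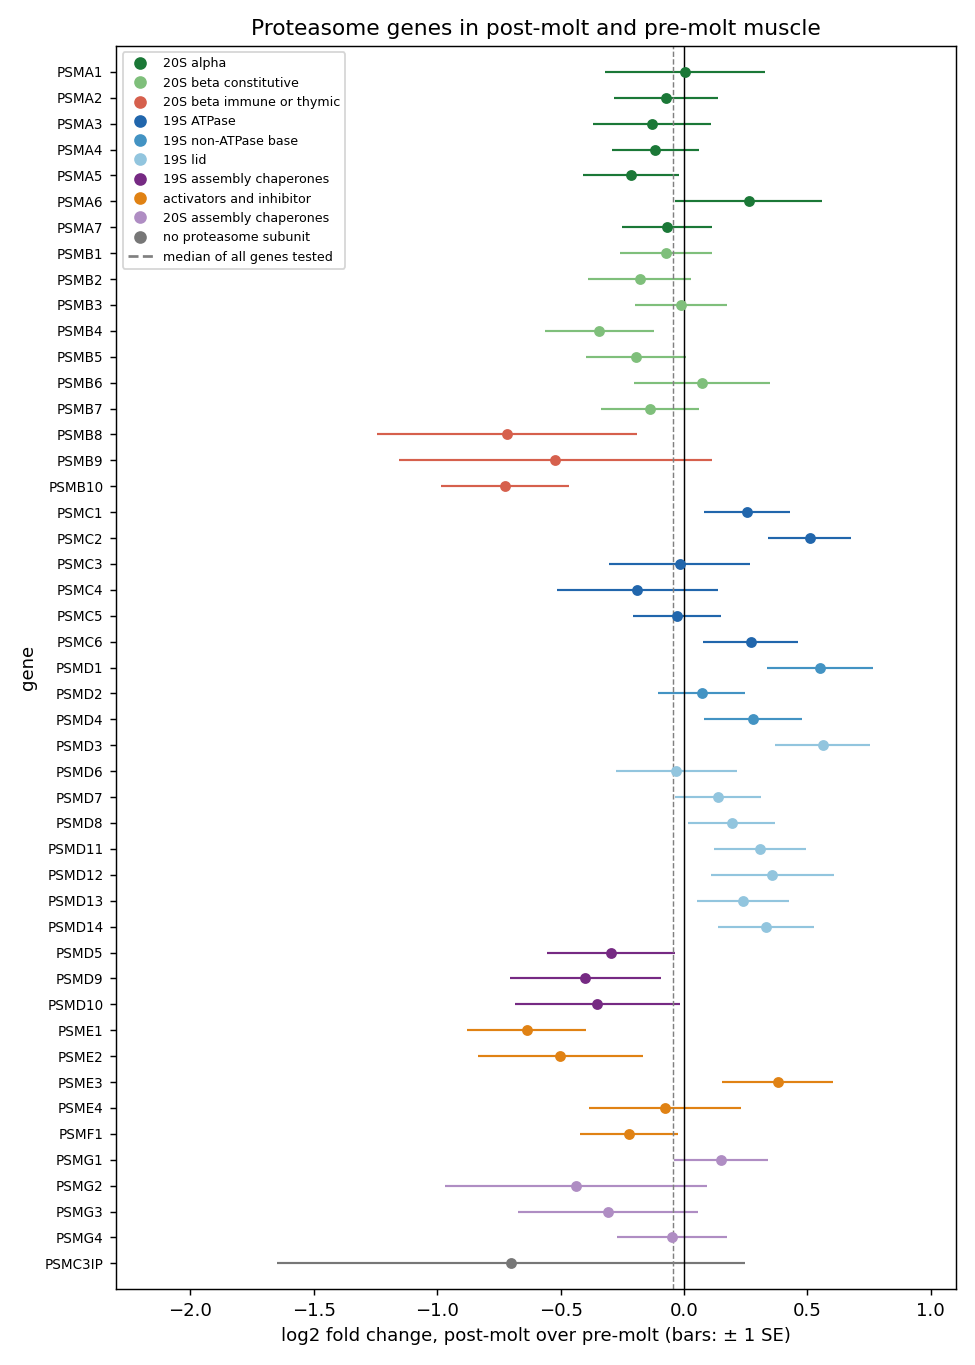
Fold change of each of the 47 members, post-molt over pre-molt (log2, x axis), as points with bars of 1 SE, 4 libraries per group, coloured by subcomplex. Most 20S core points lie near the dashed median of all genes tested (-0.04), 13 of 17 19S subunits lie to the right of 0, and the immune subunits, PSME1, PSME2 and the 19S assembly chaperones lie to the left.

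Split by subcomplex, most 19S subunits had positive values and most 20S subunits negative ones, with no test of the difference between the lists. Among the 17 structural 19S subunits 13 had a positive fold change, with a median of 0.26, whereas among the 14 constitutive 20S subunits 3 had a positive fold change, with a median of -0.09. Over all genes tested 46.5% were positive. Counting every PSMC and PSMD gene without PSMC3IP, 13 of 20 were positive (median 0.22), and counting every PSMA and PSMB gene, 3 of 17 were (median -0.13). The 9 activator, inhibitor and assembly genes (PSME, PSMF and PSMG) had 2 positive values and a median of -0.22.

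The reads of each subcomplex were also summed. The 19S subunits took 0.255%, 0.215%, 0.230% and 0.219% of the reads of the post-molt libraries, against 0.170%, 0.174%, 0.181% and 0.180% of those pre-molt, and the groups did not overlap. With TMM factors the 19S sum was 2177 ± 104 CPM post-molt and 1865 ± 169 CPM pre-molt (SD, n = 4 each), and the groups met through X410B and 5842A. The constitutive 20S subunits took 0.106%, 0.1099%, 0.1003% and 0.122% post-molt, against 0.0948%, 0.123%, 0.0965% and 0.108% pre-molt, and these ranges overlapped. For each read of a 20S gene there were 2.11 ± 0.29 reads of 19S genes post-molt and 1.69 ± 0.20 pre-molt (SD, n = 4 each), with 4448B highest at 2.41 and 5842A lowest at 1.42. This ratio overlapped between the groups, at 1.80 in post-molt X410B and 1.88 in pre-molt 6762A. On the TMM scale the mean of the 19S genes, each centred on its own average, was 0.08 to 0.16 post-molt and -0.21 to -0.0044 pre-molt in log2 units, without overlap. The corresponding mean of the 20S genes was -0.22 to 0.13 post-molt and -0.21 to 0.39 pre-molt, and the 19S minus 20S difference within a library overlapped too, at -0.04 to 0.38 post-molt and -0.40 to -0.0071 pre-molt. No p is given for these sums and means, since their genes are not replicates and the list was chosen with results known.

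The sign of the 20S median depended on library 5842A and on the scaling. Without 5842A the median was 0.06, and with total counts in place of TMM factors it was 0.07, a scaling that moved the median of all genes tested up by 0.15 to 0.10. Relative to all genes, the 20S median was -0.05 under TMM and -0.03 under total counts, and the 19S median 0.30 and 0.31. The 19S median stayed between 0.20 and 0.34 with each library left out in turn, and the difference of the 19S and 20S medians (0.35) between 0.28 and 0.41. Without 9678B and 5842A, the post-molt and pre-molt libraries whose reads mapped uniquely least often according to the supplement of the study, that difference was 0.17, with the 20S median at 0.12 and the 19S median at 0.29.

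**Figure D2:**
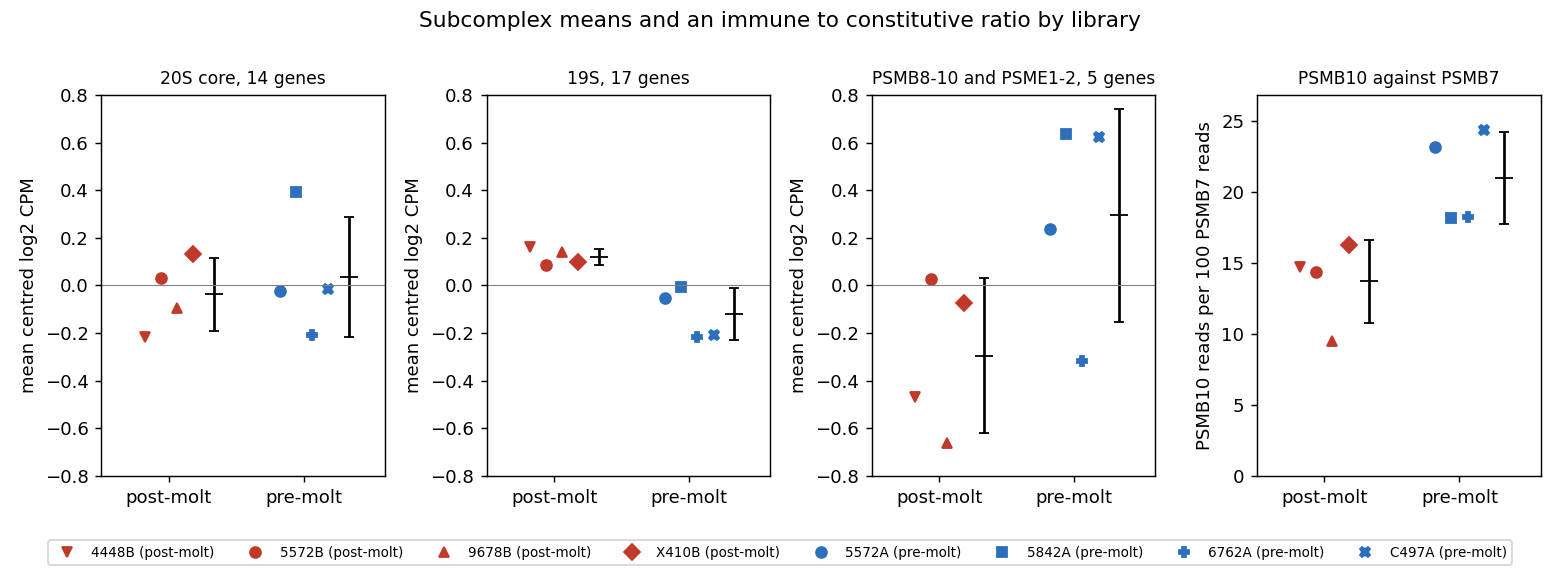
Mean of log2 CPM centred on each gene's average, by library, for 14 constitutive 20S subunits, 17 19S subunits and 5 immune genes, and PSMB10 reads per 100 PSMB7 reads (far right). Points are single libraries (4 post-molt at left, 4 pre-molt at right) and bars are mean ± SD. The 19S panel and the PSMB10 panel show no overlap of the groups, and library 5842A stands highest in the 20S panel at 0.39.

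Within the 20S core the alpha subunits form the outer rings and the gate. Their fold changes ran from -0.21 for PSMA5 to 0.26 for PSMA6, with a median of -0.07 over 7 genes, and none had an unadjusted p under 0.05. PSMA6 had 13.1, 15.2, 26.1 and 22.5 CPM in the post-molt libraries, against 14.8, 22.2, 10.3 and 16.8 CPM in the pre-molt libraries (0.26 ± 0.30, edgeR adjusted p = 0.844). PSMA5 had 39.0, 54.9, 55.6 and 60.5 CPM post-molt and 54.0, 67.4, 53.7 and 68.6 CPM pre-molt (-0.21 ± 0.20, adjusted p = 0.782). In both genes the groups overlapped, and the lowest PSMA5 value was that of 4448B. PSMA7, another alpha ring subunit, had a fold change of -0.07 ± 0.18, and PSMA1, the least covered alpha gene with 177 to 713 reads a library, 0.0035 ± 0.32.

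The constitutive beta subunits had a median fold change of -0.14, with 6 of 7 negative. PSMB5, the chymotrypsin-like site, had 86.9, 101, 92.6 and 125 CPM post-molt, against 115, 151, 99.9 and 98.4 CPM pre-molt (-0.19 ± 0.20, edgeR adjusted p = 0.825). PSMB6, the caspase-like site, had 61.0, 84.3, 94.2 and 103 CPM post-molt and 84.4, 127, 54.4 and 58.9 CPM pre-molt (0.07 ± 0.28, adjusted p = 0.960). PSMB7, the trypsin-like site, had 132, 139, 118 and 134 CPM post-molt and 142, 193, 113 and 128 CPM pre-molt (-0.14 ± 0.20, adjusted p = 0.882). In each of the 3 catalytic genes the groups overlapped and library 5842A was the highest of all 8. PSMB4, a beta subunit without a catalytic site, had the lowest fold change of the constitutive beta subunits (-0.34 ± 0.22, adjusted p = 0.633), with 58.9, 74.2, 56.3 and 81.6 CPM post-molt and 77.3, 114, 62.7 and 90.2 CPM pre-molt. Over the 14 constitutive core genes, 5842A held the highest value in 10 and the lowest in 0.

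The inducible immune subunits and the PA28 activator had lower means post-molt, but none passed the test. All 5 genes (PSMB8, PSMB9, PSMB10, PSME1 and PSME2) had negative fold changes, from -0.72 to -0.50 with a median of -0.64. edgeR called 0 of the 5, and DESeq2 called 0 of the 4 with an adjusted p, as it gave PSMB9 none. At an unadjusted edgeR p under 0.05, 2 were lower (PSMB10 and PSME1), where 6.22% of all genes tested were lower. PSMB10, the immune counterpart of PSMB7, had 19.5, 19.9, 11.3 and 21.8 CPM post-molt, against 32.97, 35.1, 20.6 and 31.2 CPM pre-molt (-0.72 ± 0.26, edgeR adjusted p = 0.264, unadjusted p = 0.0155). The groups met only through pre-molt 6762A and post-molt X410B. PSMB8, the counterpart of PSMB5, had 2.24, 4.55, 1.29 and 3.71 CPM post-molt and 3.02, 5.21, 4.25 and 6.92 CPM pre-molt (-0.72 ± 0.53, adjusted p = 0.693). PSMB9, the counterpart of PSMB6, had 1.78, 2.97, 1.81 and 1.96 CPM post-molt and 3.95, 3.10, 1.07 and 4.10 CPM pre-molt (-0.52 ± 0.63, adjusted p = 0.851). Both overlapped between the groups and rested on few reads, 40 to 412 a library for PSMB8 and 56 to 244 for PSMB9.

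PSME1 and PSME2 code for the alpha and beta chains of PA28, an interferon-induced cap that opens the core without ATP. PSME1 was the only member with all post-molt libraries below all pre-molt libraries, at 42.2, 55.5, 57.4 and 50.2 CPM post-molt and 63.5, 122, 60.3 and 73.3 CPM pre-molt (-0.64 ± 0.24, edgeR adjusted p = 0.301). Its fold change was -0.34 without 5842A. PSME2 had 6.54, 8.05, 7.07 and 10.52 CPM post-molt and 9.97, 14.5, 6.26 and 14.8 CPM pre-molt (-0.50 ± 0.33, adjusted p = 0.657), and the groups overlapped.

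Ratios of reads within a library do not depend on scaling. For every 100 reads of PSMB7 there were 14.7, 14.3, 9.52 and 16.3 reads of PSMB10 in the post-molt libraries, against 23.2, 18.2, 18.3 and 24.4 in the pre-molt libraries, without overlap. For PSMB8 per 100 reads of PSMB5 the values were 2.57, 4.50, 1.39 and 2.95 post-molt and 2.63, 3.45, 4.25 and 7.03 pre-molt, and for PSMB9 per 100 reads of PSMB6 they were 2.91, 3.52, 1.92 and 1.91 post-molt and 4.68, 2.44, 1.97 and 6.96 pre-molt. Among these ratios of immune to constitutive subunits, only that of PSMB10 separated the groups, and those of PSMB8 and PSMB9 were lower in mean post-molt with overlap.

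Other genes of interferon response and antigen presentation, and markers of the cells a biopsy can hold, are given beside these subunits. B2M, the light chain of MHC class I, had 107, 173, 105 and 155 CPM post-molt and 184, 319, 181 and 244 CPM pre-molt (-0.78 ± 0.25, edgeR adjusted p = 0.196, DESeq2 adjusted p = 0.0444). The peptide transporter genes TAP1 (-0.84 ± 0.45, edgeR adjusted p = 0.541) and TAP2 (-0.66 ± 0.38, adjusted p = 0.577) were negative without passing, and the fold change of the interferon factor IRF1 (-0.36 ± 0.46) was smaller than its SE. Of the 14 genes listed, the 5 proteasome members included, edgeR called 0 higher and 0 lower. Before adjustment 3 were lower at p under 0.05, where 6.22% of all genes tested were lower. DESeq2 gave 1 lower and 0 higher calls among the 13 with an adjusted p, against 3.16% and 3.35% of its genes. Fold changes were negative in 12, and the median was -0.51. Of 12 leukocyte and macrophage markers 10 were tested, 5 positive and 5 negative with a median of -0.03, and their summed level was 34.4 to 85.0 CPM post-molt and 28.4 to 94.0 CPM pre-molt. All 6 fibroblast markers were negative (summed level 139 to 357 CPM post-molt and 337 to 1114 CPM pre-molt, 5842A highest), as were 4 of 5 adipocyte markers tested. The part of these cells in the values of the immune subunits was not tested, and in whole biopsies fewer cells of a type and less RNA per cell cannot be told apart.

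**Figure D3:**
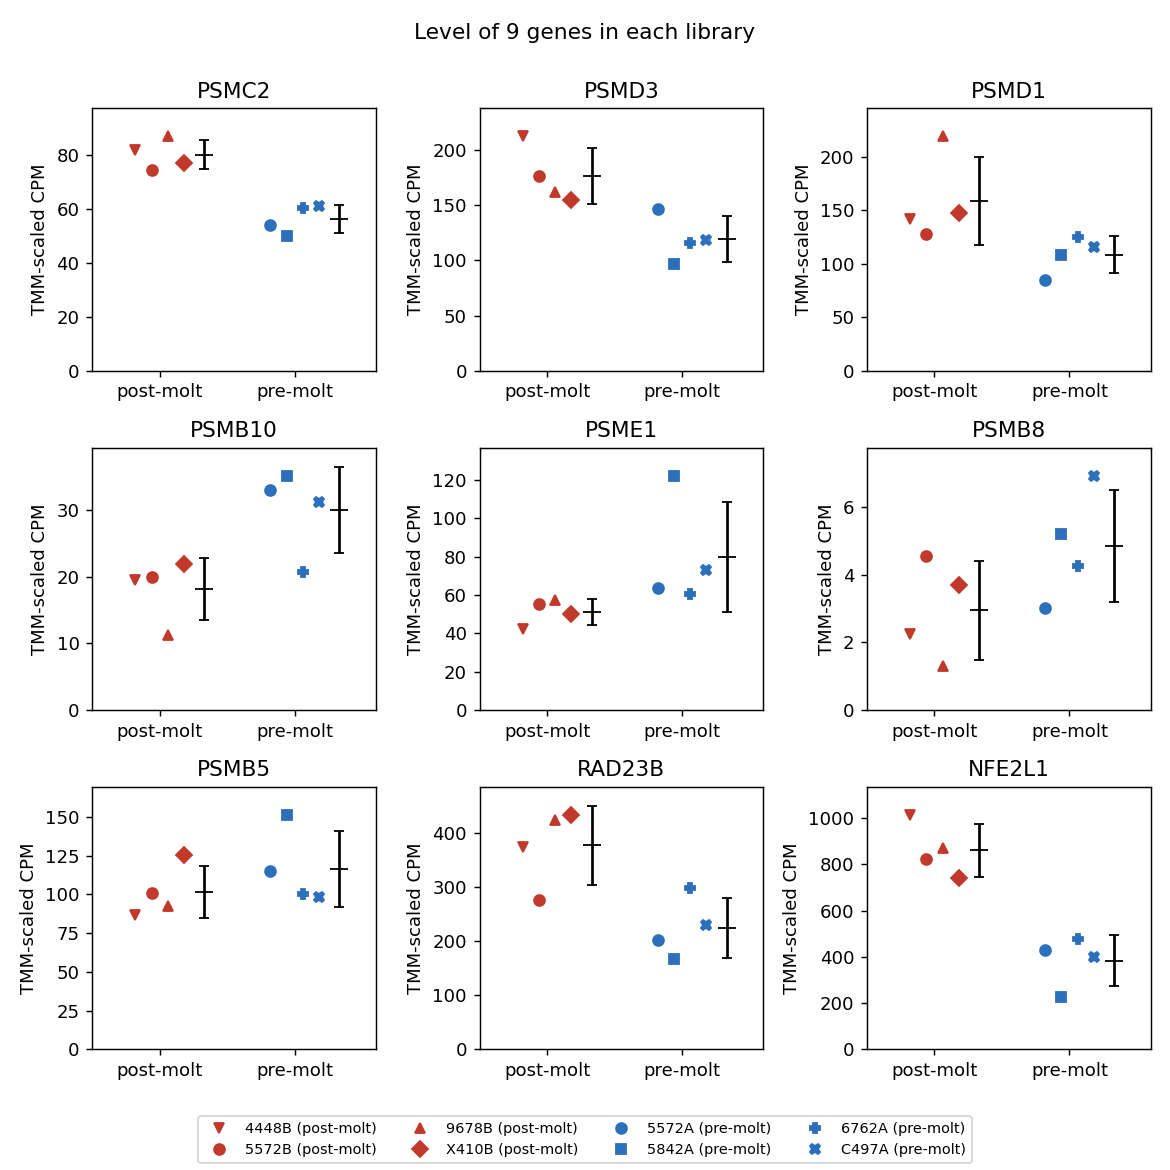
TMM-scaled CPM of 9 genes in each library (4 post-molt at left and 4 pre-molt at right of each panel, 1 symbol per library), with mean ± SD as bars and axes that start at 0. The post-molt points of PSMC2, PSMD3, PSMD1 and NFE2L1 lie above all pre-molt points, those of PSME1 lie below, and those of PSMB10, PSMB8, PSMB5 and RAD23B overlap with the pre-molt points.

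The ATPase ring of the 19S base held PSMC2, the member with the smallest p. PSMC2 had 81.8, 74.3, 86.7 and 77.0 CPM in the post-molt libraries, against 53.9, 49.7, 60.1 and 60.9 CPM in the pre-molt libraries (0.51 ± 0.17, edgeR adjusted p = 0.217, DESeq2 adjusted p = 0.0135). All post-molt values lay above all pre-molt values, and the fold change stayed between 0.47 and 0.55 with each library left out. PSMC1 (0.26 ± 0.17) and PSMC6 (0.27 ± 0.19) were positive with overlapping groups, while PSMC3 (-0.02 ± 0.29) and PSMC5 (-0.03 ± 0.18) were near 0. PSMC4 had the lowest value of the ring (-0.19 ± 0.33, edgeR adjusted p = 0.905), with 45.9, 45.0, 20.3 and 53.3 CPM post-molt and 44.7, 60.0, 24.5 and 58.6 CPM pre-molt, where 9678B and 6762A stood well below the others of their groups. PSMC3 was at 271 CPM in 5842A and at 96.9 to 171 CPM in the other 7 libraries, and without 5842A its fold change was 0.39. The 6 ATPases, which form a single ring, thus ranged from -0.19 to 0.51.

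The base also holds the large scaffold subunits PSMD1 and PSMD2 and the ubiquitin receptor PSMD4. PSMD1 had 142, 128, 219 and 147 CPM post-molt, against 85.0, 108, 125 and 116 CPM pre-molt (0.55 ± 0.21, edgeR adjusted p = 0.321, DESeq2 adjusted p = 0.126). The groups did not overlap, and 9678B stood highest. PSMD2 had a fold change of 0.07 ± 0.18 and PSMD4 of 0.28 ± 0.20 (adjusted p = 0.675), with 142, 145, 168 and 138 CPM of PSMD4 post-molt and 120.0, 161, 94.1 and 113 CPM pre-molt. Again a single pre-molt library, 5842A, brought the PSMD4 groups into overlap.

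Of the 8 lid subunits 7 had a positive fold change, with a median of 0.27. PSMD3, a scaffold subunit of the lid, had 212, 177, 162 and 154 CPM post-molt and 147, 96.4, 116 and 119 CPM pre-molt (0.56 ± 0.19, edgeR adjusted p = 0.243, DESeq2 adjusted p = 0.0351), the largest positive value of any member, and the groups did not overlap. PSMD14, the enzyme that removes ubiquitin chains from substrates, had 35.1, 38.1, 44.5 and 46.1 CPM post-molt and 39.6, 34.2, 29.1 and 27.4 CPM pre-molt (0.33 ± 0.20, adjusted p = 0.588). PSMD11, a lid subunit known in human stem cells to raise assembly of the 26S proteasome, had 193, 189, 251 and 204 CPM post-molt and 178, 141, 194 and 162 CPM pre-molt (0.31 ± 0.18, adjusted p = 0.599). Groups overlapped for PSMD14 and PSMD11. PSMD12 was the most uneven lid gene pre-molt, at 31.2 CPM in 5842A and 58.4 to 78.4 CPM in the other 3, with a fold change of 0.36 ± 0.25 that was 0.18 without that library. PSMD6 was the lowest lid gene (-0.03 ± 0.25).

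The DESeq2 calls of PSMC2 and PSMD3 depended on single libraries. DESeq2 called both without X410B, PSMD3 alone without 5572A, PSMC2 alone among the pair without 6762A or C497A, and neither without 4448B, 5572B, 9678B or 5842A. Adjusted p of PSMC2 ranged from 0.0166 to 0.119 over these 8 fits, and that of PSMD3 from 0.012 to 0.203, while the fold changes from DESeq2 stayed at 0.48 to 0.56 for PSMC2 and 0.47 to 0.68 for PSMD3. In the same fits DESeq2 called 196 to 347 genes higher in the whole table, against 335 with all libraries. It called neither gene without 9678B and 5842A, nor without 5572B and 5572A. Without 6762A it also called PSMB10 lower.

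The chaperones that build the 19S base, PSMD5, PSMD9 and PSMD10, leave the particle when it is complete, and all 3 had negative values. The fold changes were -0.30 ± 0.26, -0.40 ± 0.31 and -0.35 ± 0.33, with edgeR adjusted p of 0.766, 0.714 and 0.793. Single libraries moved them, to -0.13 for PSMD5 without 9678B, -0.18 for PSMD9 without C497A and -0.11 for PSMD10 without 4448B. PSMD9 had 16.96, 17.9, 11.4 and 18.6 CPM post-molt and 18.3, 11.3, 25.6 and 30.4 CPM pre-molt, and PSMD10 had 4.46, 9.33, 13.7 and 10.3 CPM post-molt and 11.6, 13.3, 10.1 and 13.3 CPM pre-molt. The groups overlapped in each of the 3 genes.

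The chaperones of core assembly, PSMG1 to PSMG4, had fold changes of 0.15 ± 0.19, -0.44 ± 0.53, -0.31 ± 0.37 and -0.05 ± 0.22. PSMG2, the partner of PSMG1, had 7.41, 5.80, 1.0 and 6.92 CPM post-molt and 8.78, 9.25, 4.27 and 6.40 CPM pre-molt, and its value in 9678B came from 31 reads. PSMG3, the partner of PSMG4, had 10.2, 16.8, 20.7 and 22.1 CPM post-molt and 20.5, 38.9, 12.4 and 14.8 CPM pre-molt. No member of either pair separated the groups.

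Among the remaining caps, PSME3, the nuclear PA28 gamma chain, had 22.9, 28.9, 37.4 and 35.9 CPM post-molt and 28.6, 18.9, 24.3 and 24.3 CPM pre-molt (0.38 ± 0.22, edgeR adjusted p = 0.590). It thus had the opposite sign to PSME1. For every 100 reads of PSME3 there were 185, 192, 153 and 139.8 reads of PSME1 post-molt and 222, 647, 248 and 302 pre-molt, without overlap. Since PSME1 alone already separated the groups, this ratio is not a separate result. PSME4, the PA200 cap, had 99.0, 81.2, 168 and 105 CPM post-molt and 79.9, 97.4, 201 and 99.5 CPM pre-molt (-0.08 ± 0.31), and in each group 1 library, 9678B and 6762A, stood far above the other 3. PSMF1, an inhibitor of the core named PI31, had a fold change of -0.22 ± 0.20 (adjusted p = 0.771).

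PSMC3IP, which shares only the first letters of its symbol with the subunits, had 3.61, 4.25, 0 and 2.77 CPM post-molt and 4.95, 2.32, 5.54 and 4.50 CPM pre-molt (-0.70 ± 0.95, edgeR adjusted p = 0.871). The 0 is that of 9678B, where 3 reads would have been 0.0968 CPM. Without PSMC3IP the median of the members was -0.06.

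In the 1 seal with libraries of both stages here, the values of 5572B minus 5572A gave medians of 0.09 over the 19S subunits, 0.02 over the constitutive 20S subunits and -0.31 over PSMB8, PSMB9, PSMB10, PSME1 and PSME2 in log2 units. PSMC2 was higher by 0.46, PSMD1 by 0.59 and PSMD3 by 0.27 in 5572B, and PSMB10 was at -0.73, whereas PSMB8 was higher by 0.59. These are differences between 2 libraries of 1 animal and have no error.

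**Figure D4:**
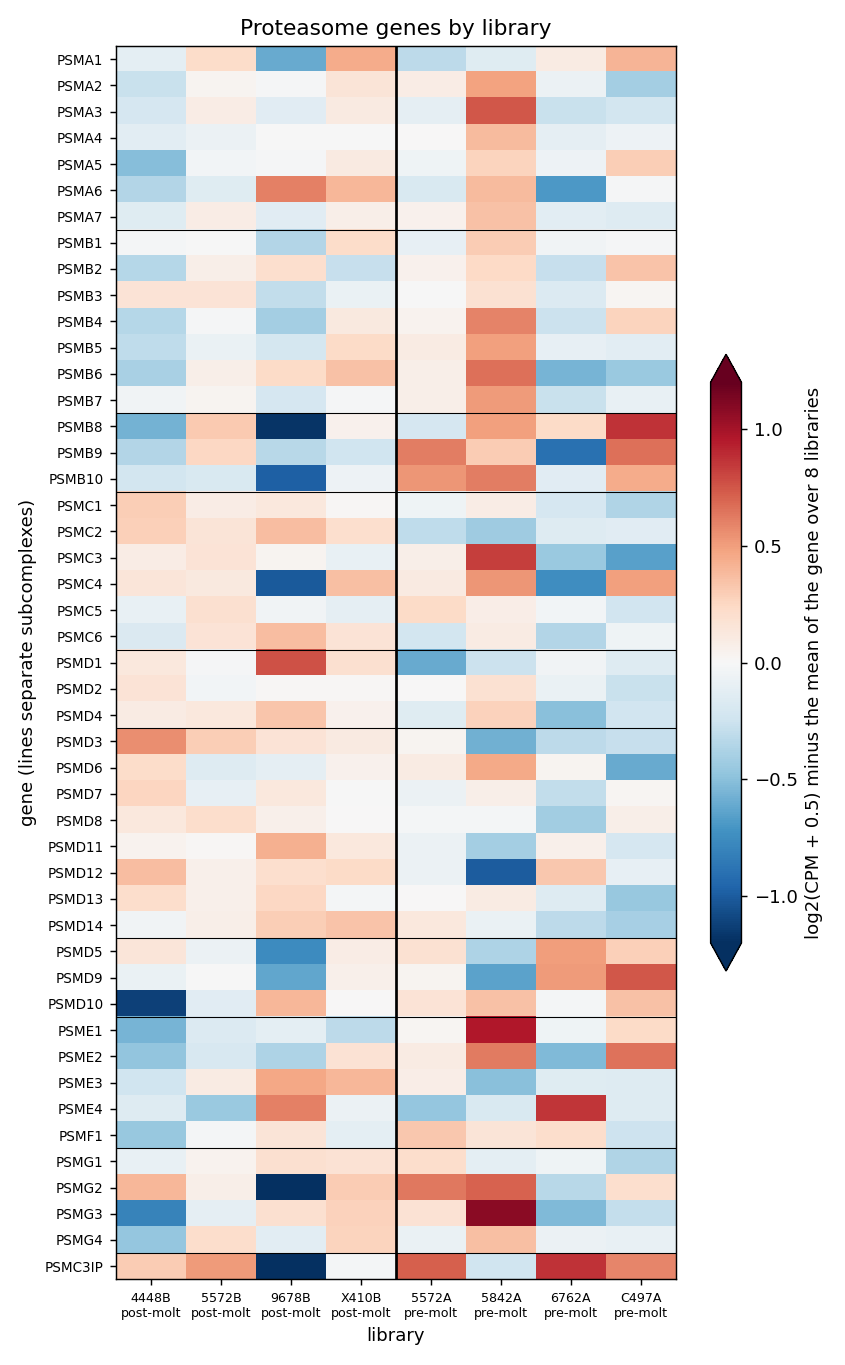
log2(CPM + 0.5) of each of the 47 members minus its mean over the 8 libraries, with post-molt libraries left and pre-molt libraries right of the heavy line and thin lines between subcomplexes; colours end at -1.2 and 1.2. Library 5842A is high through most 20S core genes and low in PSMD12, PSMD3 and PSMC2, and 9678B is low in PSMB8, PSMB10, PSMC4, PSMG2 and PSMC3IP.

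Partners of the proteasome without a PSM symbol were mostly flat. Of 14 symbols listed 11 were tested, edgeR and DESeq2 called 0 of them higher and 0 lower, and at an unadjusted p under 0.05 edgeR also gave 0. The median was 0.11, with USP14, a deubiquitinase that docks on the 19S base, at 0.42 ± 0.22 (edgeR adjusted p = 0.526) and POMP, the maturation factor of the core, at -0.28 ± 0.34 (adjusted p = 0.853), which was -0.052 without 4448B. Shuttle receptors, which carry ubiquitin-tagged proteins to the 19S particle, had 5 of 6 positive values and a median of 0.43. Of all genes tested 46.5% were positive. edgeR called 0 of the 6, with 3 higher at an unadjusted p under 0.05, where 5.2% of all genes tested were higher. DESeq2 called 1 higher, against 3.35% of its genes. RAD23B had 375, 276, 426 and 434 CPM post-molt and 203, 168, 299 and 231 CPM pre-molt (0.75 ± 0.23, edgeR adjusted p = 0.183, DESeq2 adjusted p = 0.0188). UBQLN1 (0.57 ± 0.23, edgeR adjusted p = 0.341) separated the groups without passing in either tool. In 2 of the 6 all post-molt libraries lay above all pre-molt libraries, against 4.05% of all genes tested.

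NFE2L1, the transcription factor of proteasome genes, had 1013, 824, 869 and 739 CPM in the post-molt libraries, against 430.3, 225, 477 and 400.5 CPM in the pre-molt libraries (1.17 ± 0.24, edgeR adjusted p = 0.0600, DESeq2 adjusted p = 6.32e-05). All 4 post-molt values were above all 4 pre-molt values, and 5842A was lowest. NFE2L1 also passed with limma-voom (adjusted p = 0.0314) and in edgeR without a filter on low counts (adjusted p = 0.0280). NFE2L1 did not pass the main test, nor 8 of the 11 other settings. With 1 library left out, 0 of the edgeR fits called it. Its small MAF partner MAFG also separated the groups (0.81 ± 0.35, edgeR adjusted p = 0.385), with 39.2, 24.5, 24.2 and 31.2 CPM post-molt and 20.8, 6.05, 21.1 and 19.97 CPM pre-molt. The 12 genes listed for NFE2L1 control include its glycosidase NGLY1 (-0.23 ± 0.21) and the protease DDI2 that activates it (0.37 ± 0.27). Of these 12 edgeR called 0, with 2 higher at an unadjusted p under 0.05, where 5.2% of all genes tested were higher. In 2 of the 12 all post-molt libraries lay above all pre-molt libraries, against 4.05% of all genes tested. DESeq2 called 1 higher among the 11 with an adjusted p, against 3.35% of its genes. Fold changes were positive in 9, with a median of 0.28, where 46.5% of all genes tested were positive. NFE2L1 thus had a log2 fold change of 1.17, against medians of -0.09 for the constitutive 20S subunits and 0.26 for the 19S subunits.

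Ubiquitin genes had negative values. RPS27A (-0.74 ± 0.27, edgeR adjusted p = 0.270), which codes for ubiquitin fused to a ribosomal protein, and the polyubiquitin gene UBB (-0.40 ± 0.19, adjusted p = 0.463) did not pass in edgeR or DESeq2. RPS27A and UBB had all post-molt libraries below all pre-molt libraries. RPS27A was at 886 CPM in 5842A and at 399.5 to 455 CPM in the other pre-molt libraries, and its fold change was -0.37 without 5842A. Of the 5 ubiquitin and E1 genes tested all had negative values, with a median of -0.40. The VCP unfoldase list was mixed, with 3 of 8 positive and a median of -0.06; its adaptor genes NSFL1C (0.36 ± 0.16, edgeR adjusted p = 0.434) and UBXN1 (-0.43 ± 0.19, adjusted p = 0.428) had unadjusted p under 0.05 in opposite directions, and VCP itself was at -0.03 ± 0.20. The muscle ubiquitin ligases FBXO32 (0.79 ± 0.38, adjusted p = 0.453) and TRIM63 (-0.08 ± 0.28, adjusted p = 0.957) did not pass. FBXO32 was at 237, 163, 228 and 231 CPM post-molt and 84.3, 67.8, 259.8 and 84.4 CPM pre-molt, with pre-molt 6762A the highest of all 8 libraries. Without 6762A edgeR called FBXO32 higher (1.45, adjusted p = 0.0216). No other fit with 1 library left out called it, nor did any of the 11 other settings.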

How the data were processed

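The deposited table holds raw counts, reads per gene that the authors obtained with STAR on the Hawaiian monk seal genome after base calling with bcl2fastq 2.20, in 8 libraries of NES muscle. The strand setting of the counting is not given in the sources used here, so overlapping antisense genes cannot be told apart. Of 24349 rows, 11 that name no gene (0.0173 to 0.0259% of counts) were left out. Genes were kept by filterByExpr and tested with the edgeR 4.0.16 quasi-likelihood test with TMM factors and Benjamini-Hochberg adjustment over 14312 genes, a threshold of 0.05, in R 4.3.3. Each SE was derived from this test, as the absolute log2 fold change over the square root of the F statistic. DESeq2 1.42.0, the tool of the study, and limma-voom (limma 3.58.1) were alternatives, as were other scalings, other filters and leaving out libraries. The scripts were tested on simulated data. No pair of libraries agreed within sampling noise. The members and gene lists were chosen with earlier results of these data known. Named genes were members called by edgeR or DESeq2, the highest and lowest of each subcomplex, the catalytic, immune, activator and assembly genes, NFE2L1, POMP, FBXO32, TRIM63 and listed pathway genes with an unadjusted p under 0.05; other genes were named after their values were seen. Some listed pathway genes that meet this rule are not reported here. Sequences were not used here.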

Additional observations from a re-analysis of the deposited data

Results flagged for a closer look

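In 4 of 94 groups of 4 libraries examined, 1 library stood far from the other 3 of its group, a distance that chance alone gives in about 1 of 20 groups. PSMA3, an alpha subunit of the core, was at 124 CPM in pre-molt library 5842A and at 61.4 to 68.5 CPM in the other pre-molt libraries. PSMG4, a chaperone of core assembly, was at 37.4 CPM in the same library and at 27.3 to 27.5 CPM in the others. PSME4, the PA200 cap, was at 201 CPM in pre-molt library 6762A, against 79.9 to 99.5 CPM in the other pre-molt libraries. PSMB9, an immune core subunit, was at 2.97 CPM in post-molt library 5572B and at 1.78 to 1.96 CPM in the other post-molt libraries.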

How the results depend on the processing

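No proteasome gene was called by edgeR under any alternative run, while DESeq2 called 2 higher. edgeR called 31 genes higher and 19 lower in the whole table, against 128 and 97 without a filter on low counts, 335 and 316 by DESeq2, 55 and 39 by limma-voom, 43 and 31 with robust estimates, 40 and 10 with total counts, and 0 and 0 without 9678B and 5842A. Leaving out 1 library gave 7 to 28 higher and 2 to 21 lower, and leaving out 5572B and 5572A gave 3 and 2. No paired analysis was possible because only 1 seal has both stages among the 8 libraries, so that a fit with seal as a block leaves no residual degrees of freedom. A fit with seal as a random effect was not run.

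The median over all members was -0.11 to 0.072 and that of the 19S subunits 0.20 to 0.34 with 1 library left out, the highest values without 5842A. With total counts in place of TMM factors, an alternative chosen after seeing the data, these medians were 0.10 and 0.42. Without 9678B and 5842A the median was 0.14 over all members and 0.12 over the constitutive 20S subunits.

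Of 1140 values of 60 named genes under the alternatives, 1058 kept direction and call, 8 passed the threshold in addition and 74 changed sign. The genes that changed sign had fold changes smaller than their SE, and the cause was not tested. With upper-quartile factors PSMA1 was at -0.0071. With a CPM over 1 in at least 4 libraries as the filter PSMA1 was at -0.0050. With limma-voom PSMA1 was at -0.034, PSMC3 at 0.11 and PSMD6 at 0.078. Without 5572B and 5572A PSMA1 was at -0.17, PSMD6 at 0.043 and TRIM63 at 0.11. With total counts PSMA2 was at 0.10, PSMA3 at 0.052, PSMA4 at 0.048, PSMA7 at 0.096, PSMB1 at 0.089, PSMB3 at 0.15, PSMB7 at 0.039, PSMC3 at 0.19, PSMC5 at 0.13, PSMD6 at 0.16, PSME4 at 0.035, PSMG4 at 0.11 and TRIM63 at 0.10. Without 9678B and 5842A PSMA2 was at 0.13, PSMA3 at 0.23, PSMA4 at 0.018, PSMA7 at 0.11, PSMB1 at 0.15, PSMB3 at 0.16, PSMB5 at 0.030, PSMB7 at 0.11, PSMC3 at 0.40, PSMC4 at 0.20, PSMC5 at 0.031, PSMD6 at 0.21, PSMG2 at 0.083, PSMG3 at 0.075, PSMG4 at 0.15 and TRIM63 at 0.078. Without a filter PSMB3 was at 0.0024. With 1 library left out the values crossed 0 for PSMA1 (-0.17 to 0.18), PSMA2 (-0.20 to 0.13), PSMA3 (-0.23 to 0.19), PSMA4 (-0.17 to 0.028), PSMA7 (-0.13 to 0.072), PSMB1 (-0.16 to 0.050), PSMB3 (-0.069 to 0.079), PSMB6 (-0.074 to 0.40), PSMB7 (-0.23 to 0.061), PSMC3 (-0.19 to 0.39), PSMC4 (-0.40 to 0.039), PSMC5 (-0.099 to 0.046), PSMD6 (-0.20 to 0.17), PSME4 (-0.32 to 0.30), PSMG3 (-0.50 to 0.16), PSMG4 (-0.15 to 0.10) and TRIM63 (-0.31 to 0.11). Depth limits the members with few reads, with 31 of PSMG2, 40 of PSMB8 and 56 of PSMB9 in 9678B, the shallowest library.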
